A study of Mus musculus with 6 samples.

Results

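Clustered distal intergenic regions are H3K9me3 regions annotated as far from genes that lie in short runs instead of alone. Of 58511 regions in the deposited tables, 5727 (9.79%) met the rule: on chromosomes 1 to 19, annotated by the authors as distal intergenic, and with another region of any class at most 2000 bp away edge to edge. They made up 18.5% of the 30993 distal intergenic regions on these chromosomes, and the other 25266 are called isolated here. The choice used position and annotation and no signal value directly. The regions are themselves peaks called from H3K9me3 signal, so having a neighbour is not independent of the level. The mark was mapped by CUT&Tag, in which an antibody directs a transposase to cut DNA near H3K9me3, in endothelial progenitor cells (EPCs) from the bone marrow of young adult C57BL/6J mice. There were 2 libraries each from male mice (M-EPC), from female mice (F-EPC) and from female mice ovariectomized by the supplier before shipment (OVX-EPC). In all groups, lineage-depleted cells were sorted magnetically for Sca-1 and CD31 and grown in EGM-2 medium. The libraries were duplicates, and no source says that they came from separate animals or cultures, so p-values measure the spread between these samples, which may be technical.

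H3K9me3 is the trimethylated form of lysine 9 on histone H3. It is written by methyltransferases such as SUV39H1 and SETDB1 and bound by HP1 proteins, and it marks compacted, silent chromatin. In mammals much of it covers repeats, retrotransposon remnants and clusters of zinc finger genes, and it can spread from one nucleosome to the next, so that it often forms domains wider than a single peak.

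Library totals over all regions ran from 288353 to 573821 reads. The F-EPC libraries were used only on chromosomes 1 and 10 to 15 and on chromosome 16 up to position 30557137, since F-EPC replicate 1 held no read in the regions that follow in the table, and 2990 of the 5727 members lay in that stretch. A value is the authors' normalized signal, in which 1 read counts for 0.798 to 1.25, depending on the library and the table, since each pair of groups was scaled separately.

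The sequences shown here are the central 200 bases of the 3 members of the run with the most stable change, of 2 members that differed between F-EPC and M-EPC, and of the member with the highest level. Each is read from the GRCm38 plus strand, 5′ to 3′, and capitals mark bases that the RefSeq genome masks as repeats.
Gm16237 member chr8:125359849-125360048: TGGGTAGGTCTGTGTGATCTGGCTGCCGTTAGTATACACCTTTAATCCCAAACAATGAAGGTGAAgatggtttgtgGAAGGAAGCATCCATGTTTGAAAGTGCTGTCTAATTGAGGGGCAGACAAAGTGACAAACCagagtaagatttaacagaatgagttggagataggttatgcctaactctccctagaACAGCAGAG
first Sipa1l2 member chr8:125361699-125361898: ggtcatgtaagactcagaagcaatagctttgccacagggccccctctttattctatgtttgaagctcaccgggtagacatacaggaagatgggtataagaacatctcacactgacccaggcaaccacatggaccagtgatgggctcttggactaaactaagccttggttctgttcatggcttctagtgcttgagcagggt
second Sipa1l2 member chr8:125362443-125362642: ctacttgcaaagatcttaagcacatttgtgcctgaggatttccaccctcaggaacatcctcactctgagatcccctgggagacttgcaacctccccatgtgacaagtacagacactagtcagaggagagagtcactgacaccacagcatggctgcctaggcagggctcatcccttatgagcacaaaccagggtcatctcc
unnamed member chr12:25413122-25413321: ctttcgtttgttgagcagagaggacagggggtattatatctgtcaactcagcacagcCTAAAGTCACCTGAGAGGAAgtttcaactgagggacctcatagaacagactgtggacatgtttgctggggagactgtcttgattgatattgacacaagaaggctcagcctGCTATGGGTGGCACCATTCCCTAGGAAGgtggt
Lgmn member chr12:102443768-102443967: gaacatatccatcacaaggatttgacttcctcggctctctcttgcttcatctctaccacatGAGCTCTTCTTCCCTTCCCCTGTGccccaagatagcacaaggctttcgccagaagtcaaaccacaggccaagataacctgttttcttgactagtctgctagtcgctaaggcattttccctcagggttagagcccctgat
D930016D06Rik member chr5:104583987-104584186: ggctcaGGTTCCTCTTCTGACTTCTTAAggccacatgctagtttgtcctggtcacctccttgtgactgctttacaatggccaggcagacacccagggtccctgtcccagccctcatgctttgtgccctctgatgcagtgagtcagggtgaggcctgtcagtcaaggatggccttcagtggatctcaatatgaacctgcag
Over its whole region the D930016D06Rik member is 5.5% masked, although 55.6% of the 25-base words in it are found once in the genome. The first Sipa1l2 member is free of masked bases over its whole region.

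The 5727 members formed 2763 runs. Most were pairs, with 4842 members in runs of 2 regions, 767 in runs of 3 and 118 in runs of 4 to 7. Only 142 regions of other classes shared these runs, 85 of them promoters and 38 of them downstream of a gene. The median gap between neighbours was 672.5 bp, with quartiles at 336 and 1159 bp. Members were narrow: 99.1% were exactly 400 bp long. The clustered share of distal intergenic regions ranged from 14.2% on chromosome 8 to 21.8% on chromosome 10.

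The annotation was checked against GENCODE M21. The median distance from a member to the nearest transcription start was 19737 bp, against 25268.5 bp for isolated regions. A start lay within 3000 bp of 370 members (6.46%), and 637 members (11.1%) overlapped a gene of that annotation, against 9.17% of isolated regions. For these members the label distal intergenic depends on the gene set used.

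The first 5 Mb of each chromosome, next to the centromere, held 141 of the members (2.46%) and 376 of the isolated regions (1.49%), a difference that was not tested. Among the 5 runs with the most members, 2 lay there: 5 members next to Gm28002 and Gm27460 at chr3:3009653-3016635, and 5 members next to Gm10232 at chr17:3028577-3032477. The summed values at Gm10232 were 218 and 174 in M-EPC, beside 226 and 219 in OVX-EPC. The run with the most members held 7 over 7257 bp at chr7:64080223-64087479, with no gene name, and summed to 447 and 370 in M-EPC, beside 318 and 306 in OVX-EPC. Another 6 members lay next to Gm28503 at chr12:20781027-20785522, where M-EPC gave 67.7 and 58.7 and OVX-EPC gave 70.9 and 106.9. The 5 members at Gm37495, chr14:114512855-114518963, were weak, at 31.2 and 35.2 in M-EPC compared with 38.5 and 43.5 in OVX-EPC. Gm28503 was named for 17 members in all and Gm10232 for 15. The name given most often was n-R5s42, a 5S ribosomal RNA locus, with 20 members. Of the 5 longest runs in bp, the first was a 5-region run next to Gm29284 spanning 8238 bp that held 1 member, and the second a 5-region run next to Gm18348 and Gm29563 spanning 7760 bp that held 3.

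H3K9me3 was stronger in members than in isolated distal intergenic regions. Across the series, the mean number of reads per region was 1.42 to 1.69 times as high in members, and higher in 6 of 6 libraries (exact sign-flip permutation test over libraries, two-sided p = 0.0312, the smallest this design allows). In M-EPC the mean value was 11.3 and 11.02 in members and 6.69 and 6.98 in isolated regions. In OVX-EPC it was 10.5 and 11.6 against 7.31 and 7.34. The libraries share the same regions, so this test covers library spread and not the spread between regions. A neighbour is itself a called peak, so membership and level are not independent. How far the rule itself sets this difference was not tested.

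The level was higher in longer runs, although run size counts called peaks and so is not independent of the level either. Over the 4 M-EPC and OVX-EPC libraries, the mean value per member was 10.0 in runs of 2, 15.3 in runs of 3 and 26.9 in runs of 4 or more, against 7.08 in isolated regions. A mean of at least 10 was reached by 36.7% of members and 15.3% of isolated regions. Members were still shallow, with a median of 6 to 10 reads per library in runs of 2 and 16 to 20 in runs of 4 or more.

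**Figure D1:**
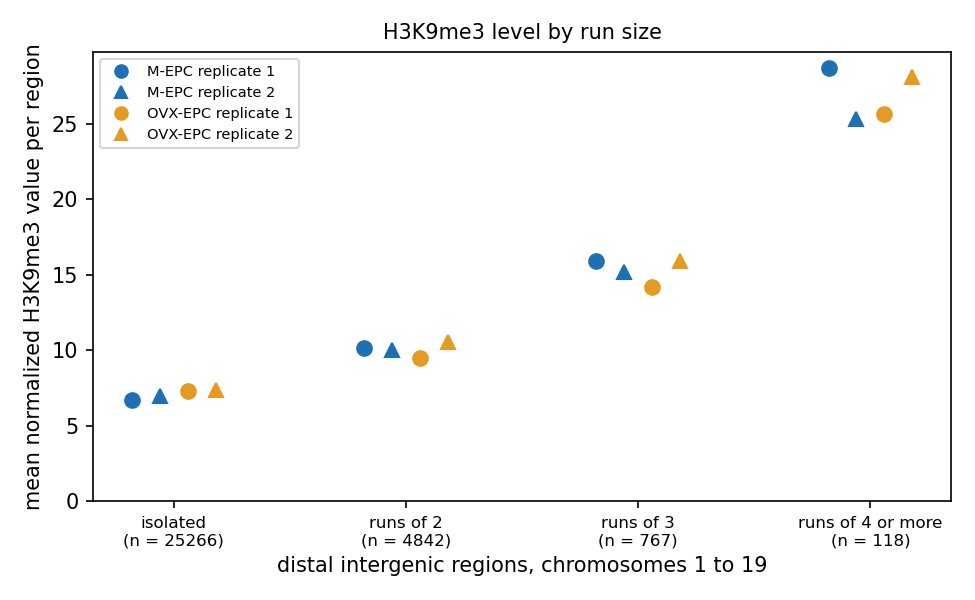
Mean normalized H3K9me3 value per region (y axis, from 0) for isolated distal intergenic regions and for members in runs of 2, 3 and 4 or more regions (x axis), 1 point for each M-EPC and OVX-EPC library. In each of the 4 libraries the mean rises from isolated regions, at 6.69 to 7.34, to runs of 4 or more, at 25.3 to 28.7.

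The strongest member was next to D930016D06Rik at chr5:104583887-104584286, where M-EPC gave 203 and 124 and OVX-EPC gave 106 and 127. The groups overlapped there. Next came a member at the vomeronasal receptor pseudogene Vmn1r-ps2, chr4:3083272-3083671, with 119 and 130 in M-EPC compared with 131 and 137 in OVX-EPC. The member at Gm5466, chr2:181930650-181931049, followed with 102 and 132 in M-EPC compared with 142 and 129 in OVX-EPC. A member at another vomeronasal pseudogene, Vmn1r-ps151, and one at Gm23215 completed the 5 highest, with means of 126 and 123. Of these 5 members, 3 lay within the first 5 Mb of their chromosome.

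Members and isolated regions were built of similar sequence. GC content was 47.8% ± 5.17 (SD over regions, n = 5727) in members and 47.5% ± 5.38 (n = 25266) in isolated regions. The genome masked 41.1% of member bases as repeats, 44.3% of the bases in the gaps between members and 40.4% of isolated regions, against 14.4% of promoter regions. CG dinucleotides numbered 1.10 per 100 bases in members, 1.01 in isolated regions and 5.04 in promoters. Words of 25 bases, the read length, were found once in the genome for 73.4% of positions in members, 77.2% in isolated regions and 90.8% in promoters. Fewer than 50% of the words were unique in 1204 members (21.02%), against 16.7% of isolated regions.

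Neighbours in a run were not copies of one another. The best identity of a member to a neighbour in its run had a median of 47%, from 45% at the 10th to 49% at the 90th percentile. Identity reached 80% in 6 members, and 195 members shared any 25-base word with a neighbour. A CA or TG repeat of 6 or more units, read on both strands, was in 3.35% of members, 4.38% of isolated regions and 3.90% of all 57177 regions on these chromosomes. TGCCGC, the core motif of the imprinting factor ZFP57, searched on both strands, was in 3.95% of members, 3.51% of isolated regions and 6.88% of all regions, among them 18.5% of promoters. The level of a member had little relation to how masked or unique it was: over 5727 members that share the same 4 libraries, Spearman's rho was -0.065 with the masked share and -0.0093 with the unique share. With distance to a transcription start it was -0.21, members nearer to a gene being the stronger ones. Members exceeded isolated regions at both ends of the unique share: the median value was 6.798 against 4.31 where at most 25% of the words were unique, and 7.87 against 5.26 where all were.

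Neighbours resembled each other in level and in the difference between groups. Over 1161 pairs of distal intergenic regions less than 500 bp apart, Spearman's rho of their mean values was 0.71. It was 0.73 over 930 pairs 1000 to 2000 bp apart, 0.67 from there up to 4999 bp, 0.42 at 5000 to 9999 bp and 0.24 at 10000 to 49999 bp. The likeness in level thus reached past the 2000 bp that define a run. For pairs with means of at least 10, Pearson's r of the OVX-EPC minus M-EPC difference was 0.45 under 500 bp (263 pairs) and 0.33 at 10000 to 49999 bp (527 pairs). The difference between the replicates of one group gave r between -0.13 and 0.15 at every distance. These are correlations across regions of the same 4 libraries, and regions are not independent replicates.

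**Figure D2:**
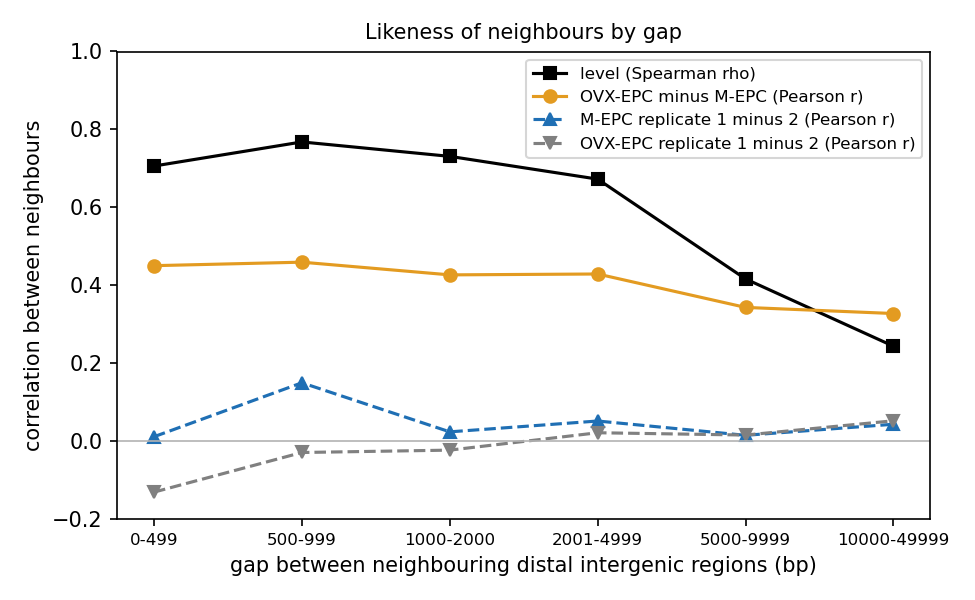
Correlation between neighbouring distal intergenic regions (y axis) by the gap between them in bp (x axis), for the mean value, the OVX-EPC minus M-EPC difference and the replicate difference within M-EPC and within OVX-EPC. The level stays at 0.67 to 0.77 up to a gap of 4999 bp and falls to 0.24 at the widest gaps, while the replicate differences stay between -0.13 and 0.15.

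By the names the authors assigned, predicted genes took 2992 members (52.2%) and 56.9% of isolated regions. Zinc finger genes, many of which encode KRAB repressors that recruit H3K9me3 to repeats, took 100 members in 49 runs (1.75%) and 0.922% of isolated regions. Their members were strong, with a median value of 17.0, against 7.42 for isolated regions of the same list. Olfactory receptors took 100 members (1.75%, against 1.84% of isolated regions), with a median of 6.59. Vomeronasal receptors, which sense pheromones, took 50 members with a median of 9.05, microRNAs took 83 with 9.22, and cytochrome P450 and UDP-glucuronosyltransferase genes, which act on drugs and steroids, took 41 with 9.37. Protocadherins took 20 members with a median of 4.91. Smaller counts went to Speer genes (6 members), serpins (4), killer lectin-like receptors (2) and major urinary proteins (2), and 0 went to defensins. A further 2167 members carried other names and 160 carried none.

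Of the genes the study followed, 2 had members. Vegfa, the angiogenic growth factor, was the name of 6 members in pairs along chromosome 17. The pair at chr17:46048194-46049254 had 23.6 and 20.8 in M-EPC against 10.1 and 16.1 in OVX-EPC at its left region. That member gave a log2 fold change of -0.75 ± 0.35 (SE) and an adjusted p of 0.29 in limma, and none of the 4 Vegfa members fitted was called. Angpt1, which encodes the TIE2 ligand angiopoietin 1, was the name of 2 members with means of 3.32 and 1.18, too few reads to be fitted. Ccl3, Kdr, Nos3 and Tek had 0 members.

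As a share of all reads in regions on chromosomes 1 to 19, members took 12.2% and 12.3% of the M-EPC libraries, beside 12.1% and 13.2% of the OVX-EPC libraries. The OVX-EPC libraries lay on either side of M-EPC. On the stretch covered by F-EPC the M-EPC libraries gave 12.9% and 13.2%, the F-EPC libraries 13.8% and 13.7%, and the OVX-EPC libraries 12.7% and 14.2%. F-EPC exceeded M-EPC by 0.714 percentage points without overlap, with an exact two-sided permutation p of 0.333, the smallest that 2 against 2 libraries can give. The difference was 0.018 points over regions with a value of at least 30 in at least 2 libraries, 0.18 with runs linked at 1000 bp and 1.42 with runs linked at 5000 bp. OVX-EPC and M-EPC overlapped (difference 0.377 points, exact permutation p = 1), as did OVX-EPC and F-EPC (-0.309 points, exact permutation p = 1). Both of these differences turned with 1 library: without OVX-EPC replicate 2 they were -0.147 and -1.03 points, and without OVX-EPC replicate 1 they were 0.9001 and 0.417 points.

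The comparison of F-EPC with M-EPC asks how the mark differs between cells of female and male mice. It was made with limma on log2(value + 1) over regions with a value of at least 10 in at least 2 libraries, and a region was called at an adjusted p under 0.05 (Benjamini-Hochberg over all regions fitted). Of 2990 members, 1310 passed the filter and 17 were called, 15 lower and 2 higher in F-EPC. Over all 8139 regions fitted, 1.79% were called, 1.62% lower and 0.172% higher, so the members' share was near that background. The median log2 fold change was -0.05 in members, -0.19 in all regions and -0.40 in promoters. The median of all regions thus sat below 0 under the authors' scaling, and with TMM factors (edgeR's trimmed mean of M-values) the median of all regions moved by 0.20. With TMM factors 1 member was called, higher in F-EPC, and over all 8139 regions 24 were called, 6 higher and 18 lower. The edgeR quasi-likelihood test on recovered reads called 17, 12 of them higher and 5 lower, and DESeq2 called 0, with 60 at an unadjusted p under 0.05. Over all 8139 regions edgeR called 106, 41 higher and 65 lower. DESeq2 called 4 of all regions, with 356 at an unadjusted p under 0.05. The split of the calls into higher and lower also differed when 1 library was left out under the authors' scaling. No count over all regions stands beside those splits, so they are not read as particular to members.

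The member that kept its call with TMM factors was next to Lgmn, the gene of the lysosomal protease legumain, at chr12:102443668-102444067. Its values were 6.25 and 8.11 in M-EPC against 22.3 and 34.1 in F-EPC. Both F-EPC libraries lay above both M-EPC libraries, with a log2 fold change of 1.82 ± 0.37 (SE) and a limma adjusted p of 0.016 (0.027 with TMM factors, 0.013 in edgeR and 0.57 in DESeq2). Both M-EPC values were under 10, so the member passed the filter only through F-EPC. Its lack of overlap therefore followed from the filter. The other member called higher, at Gm25383, chr13:78952861-78953260, had M-EPC values of 13.8 and 2.03 and F-EPC values of 24.7 and 24.0. Its M-EPC libraries stood far apart, and its limma adjusted p was 0.044.

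Among members called lower in F-EPC, an unnamed one at chr12:25413022-25413421 had the smallest p. It gave 41.3 and 23.3 in M-EPC against 10.4 and 4.61 in F-EPC, a log2 fold change of -2.005 ± 0.40 (limma adjusted p = 0.015). The member next to Serpina3i, of a family of serine protease inhibitors, gave 67.5 and 57.8 in M-EPC against 26.3 and 24.9 in F-EPC, a log2 fold change of -1.25 ± 0.26 (limma adjusted p = 0.016). Both fell by more than the median of all regions, and neither kept its call with TMM factors, where the adjusted p was 0.063 and 0.060. Of the 25-base words, 93.1% were found once in the genome in the unnamed member, but 16.2% in the Serpina3i member. How this affected the Serpina3i values was not tested.

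Of the 100 zinc finger members, 19 were fitted in this comparison and 2 were called, both next to Zfp873 and both lower in F-EPC, beside the 1.79% called over all regions. Of the other lists with members fitted, serpins had 1 of 3 called, microRNAs 0 of 31, olfactory receptors 0 of 15, vomeronasal receptors 0 of 4, protocadherins 0 of 2, and cytochrome P450 and UDP-glucuronosyltransferase genes 0 of 2. At chr10:82003404-82003803 the values were 43.8 and 32.4 in M-EPC against 15.96 and 9.22 in F-EPC, and at chr10:82009866-82010265 they were 36.3 and 30.4 against 11.97 and 14.8. In the first of these, 35.6% of the 25-base words were found once in the genome. The member at chr10:82009866-82010265 lay 66 bp from a GENCODE transcription start. The members at Gm22628, chr13:16100681-16101080, with 61.3 and 43.6 against 16.8 and 22.1, and at Gm37852, chr10:118053087-118053486, with 72.5 and 54.7 against 28.7 and 28.6, completed the 5 with the smallest p. The groups did not overlap in any of the 17 called members, nor in 4378 of all 8139 regions fitted. Members with both values of 1 group under 10 passed the filter only through the other group, so their lack of overlap followed from the filter. The other members called lower, besides the second Zfp873 member, lay next to Rgs14, Gm22503, Plekhb2, Gm37218, Rps2-ps6, Gm7765, Abcb5, Gm26395 and Pde7b. By GENCODE, the called Pde7b and Gm25383 members lay 548 and 1532 bp from a transcription start.

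**Figure D3:**
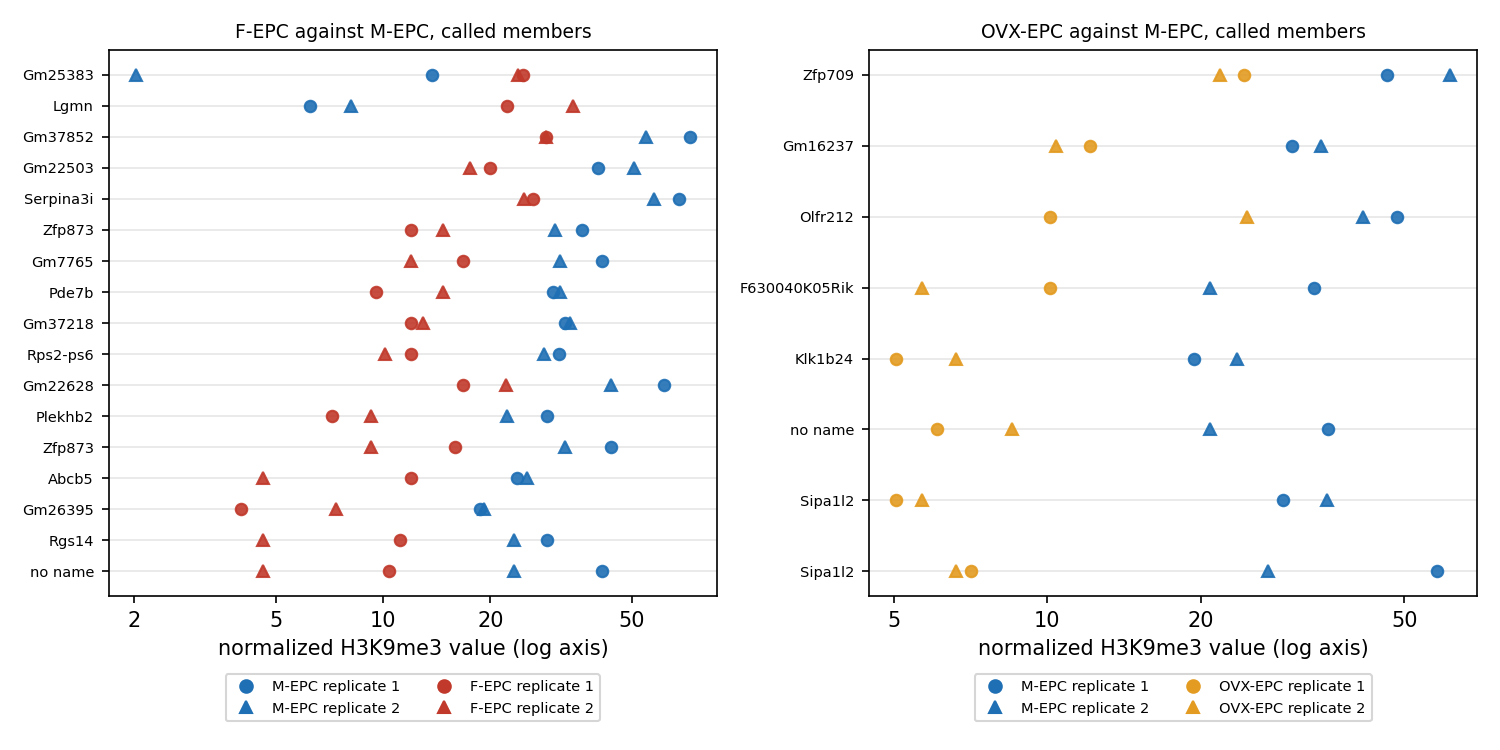
Normalized H3K9me3 values (x axis, log scale) of the members called in F-EPC against M-EPC (left, 17 members) and in OVX-EPC against M-EPC (right, 8 members), 1 row per member with the assigned gene name and 1 point per library. Left, 2 members are higher in F-EPC and 15 lower; right, all 8 are lower in OVX-EPC, and in no row do the groups overlap.

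Summing the values over a run pooled the reads of neighbours. Of 1442 runs with members in the covered stretch, 1258 were fitted and 30 were called, 23 lower and 7 higher in F-EPC. Over all 7900 runs fitted, lone regions included, 1.86% were called, 1.62% lower and 0.241% higher. The median log2 fold change was 0.11 in runs with members and -0.17 in all runs, although most calls were lower. The filter was applied to the sum, so runs could pass with weaker regions than lone regions could. These medians are thus not like for like. Of the 30 called runs, 19 held no member called on its own. TMM factors left 11 calls, 8 of them higher and 3 lower, edgeR called 41, 25 higher and 16 lower, and DESeq2 called 0, with 93 at an unadjusted p under 0.05. The split of the called runs also differed when 1 library was left out. No count over all runs stands beside that, so it is not read as particular to runs with members.

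The run with the smallest p was a pair next to Gm11682 at chr11:110633750-110634838, with summed values of 25.0 and 24.3 in M-EPC against 1.596 and 1.84 in F-EPC. Its log2 fold change was -3.24 ± 0.53 (limma adjusted p = 0.0098, and 0.026 with TMM factors). The F-EPC values there amount to about 2 reads per library, and the pair passed the filter only through M-EPC. The Serpina3i pair gave 83.8 and 78.1 in M-EPC against 28.7 and 36.0 in F-EPC (log2 fold change -1.30 ± 0.23, limma adjusted p = 0.011, and 0.026 with TMM factors). The pair next to Rgs14, a regulator of G protein signalling, at chr13:55386089-55387500 gave 61.3 and 56.8 against 23.9 and 20.3 (log2 fold change -1.38 ± 0.26, limma adjusted p = 0.014, and 0.035 with TMM factors). These 3 were the runs called lower with both scalings. In the left member of the Serpina3i pair only 16.2% of the 25-base words were found once in the genome. A pair next to Tab2, whose protein is an adaptor of the TAK1 kinase, at chr10:8164795-8165968 gave 116 and 101 against 52.7 and 54.4, and the unnamed pair at chr12:25411752-25413421 gave 55.0 and 43.6 against 20.8 and 14.8. Both of these were at an adjusted p of 0.052 with TMM factors. A second Tab2 pair, at chr10:8158859-8160247, was also called lower.

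Among runs called higher in F-EPC, the 3 members next to BC048507, chr13:67868688-67871410, summed to 22.5 and 18.2 in M-EPC against 45.5 and 52.6 in F-EPC, a log2 fold change of 1.23 ± 0.27 (limma adjusted p = 0.033, and 0.026 with TMM factors). The 3 members next to Cnih3, the gene of an AMPA receptor partner, at chr1:181333708-181336769 summed to 36.3 and 36.5 against 67.8 and 73.8 (log2 fold change 0.94 ± 0.23, limma adjusted p = 0.046, and 0.026 with TMM factors). None of these 6 members was called on its own. The pairs next to Gm6327, chr16:12769716-12770775, with 5.002 and 5.07 against 18.4 and 24.9, next to Tmem114, chr16:8433513-8435364, with 7.50 and 11.2 against 29.5 and 28.6, and next to Gm23240, chr1:48466323-48468292, with 3.75 and 5.07 against 18.4 and 19.4, were the other named ones. The Gm6327 and Gm23240 pairs passed the filter only through F-EPC, so their lack of overlap followed from the filter.

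**Figure D4:**
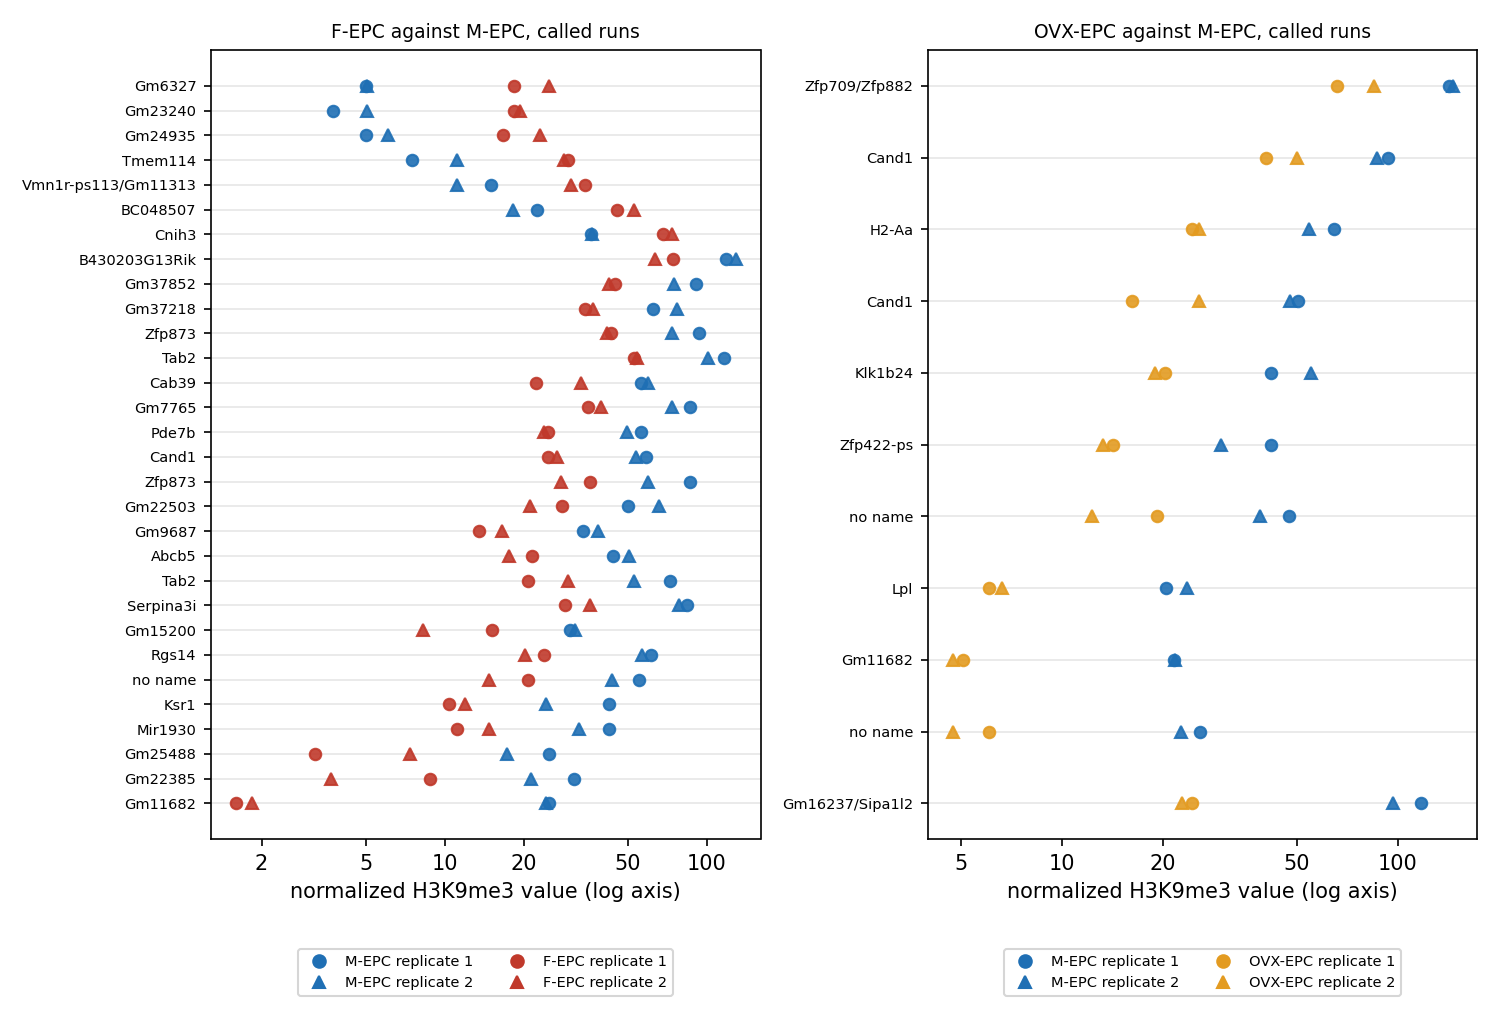
Summed normalized H3K9me3 values (x axis, log scale) of the runs called in F-EPC against M-EPC (left, 30 runs) and in OVX-EPC against M-EPC (right, 11 runs), 1 row per run and 1 point per library. Left, 7 runs are higher in F-EPC and 23 lower; right, all 11 are lower in OVX-EPC, with the Gm16237/Sipa1l2 run at 117 and 96.7 in M-EPC against 24.3 and 22.7 in OVX-EPC.

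Setting OVX-EPC against M-EPC covered members on all 19 autosomes. Of 5727 members, 2367 passed the filter and 8 were called, all of them lower in OVX-EPC. Over all 16931 regions fitted, 0.449% were called and 0.402% were called lower, so the members' share was again near the background. That background was not limited to chromosomes 1 to 19, where all members lie, so it is not a like set. Calls on the other chromosomes were not counted apart. The median log2 fold change was -0.09 in members and -0.16 in all regions, and TMM factors moved the median of all regions by 0.15. TMM factors left 4 called members, 2 lower and 2 higher, edgeR called 15, 8 higher and 7 lower, and DESeq2 called 1, lower. Over all 16931 regions TMM factors gave 50, 15 higher and 35 lower. There edgeR gave 137, 66 higher and 71 lower, and DESeq2 gave 12, 2 higher and 10 lower. The count of called members also changed when 1 library was left out. No count over all regions stands beside that change, so it is not read as particular to members.

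The change that held across settings was the run of 3 members between Gm16237 and Sipa1l2, whose protein belongs to a family of Rap GTPase-activating proteins, at chr8:125359749-125362742. Its summed values were 117 and 96.7 in M-EPC against 24.3 and 22.7 in OVX-EPC, from 109 and 107 reads against 24 and 24. The log2 fold change was -2.13 ± 0.24 (SE, limma adjusted p = 2.31e-05), and the run was called lower in all 12 alternatives run on it, with adjusted p of at most 0.0145. Chromosome 8 is outside the stretch covered by F-EPC, so F-EPC was not compared here.

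All 3 members of that run were called lower. The Gm16237 member, chr8:125359749-125360148, gave 30.1 and 34.3 in M-EPC against 12.1 and 10.4 in OVX-EPC (log2 fold change -1.44 ± 0.33, limma adjusted p = 0.039). Its call was the least stable, held in 6 of the 12 alternatives and lost with TMM factors (adjusted p = 0.080), with a pseudocount of 0.1 (0.056), in DESeq2 (0.9996), and without M-EPC replicate 1 (0.19), M-EPC replicate 2 (0.22) or OVX-EPC replicate 2 (0.055). The first Sipa1l2 member, chr8:125361599-125361998, gave 58.0 and 27.1 against 7.09 and 6.62 (-2.38 ± 0.37 on the log2 scale, limma adjusted p = 0.00062). The second, chr8:125362343-125362742, gave 29.01 and 35.2 against 5.06 and 5.67 (-2.37 ± 0.37, limma adjusted p = 0.00072). Over its whole region the Gm16237 member is repeat-rich, 57.8% of it being masked, and its printed stretch is 67% capitals. The first Sipa1l2 member has no masked base over its whole region, and every 25-base word in it is unique. The run lay 129968 bp or more from any GENCODE transcription start.

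The 5 other regions within 100 kb of the run were all isolated. The nearest, 21.5 kb away, gave 11.8 and 12.7 in M-EPC against 5.06 and 1.89 in OVX-EPC, without overlap. The strongest, 44.7 kb away, gave 43.0 and 47.9 against 41.5 and 31.2. On the other side, the region at -56.4 kb gave 15.04 and 15.4 against 11.1 and 20.8, and there the groups overlapped.

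**Figure D5:**
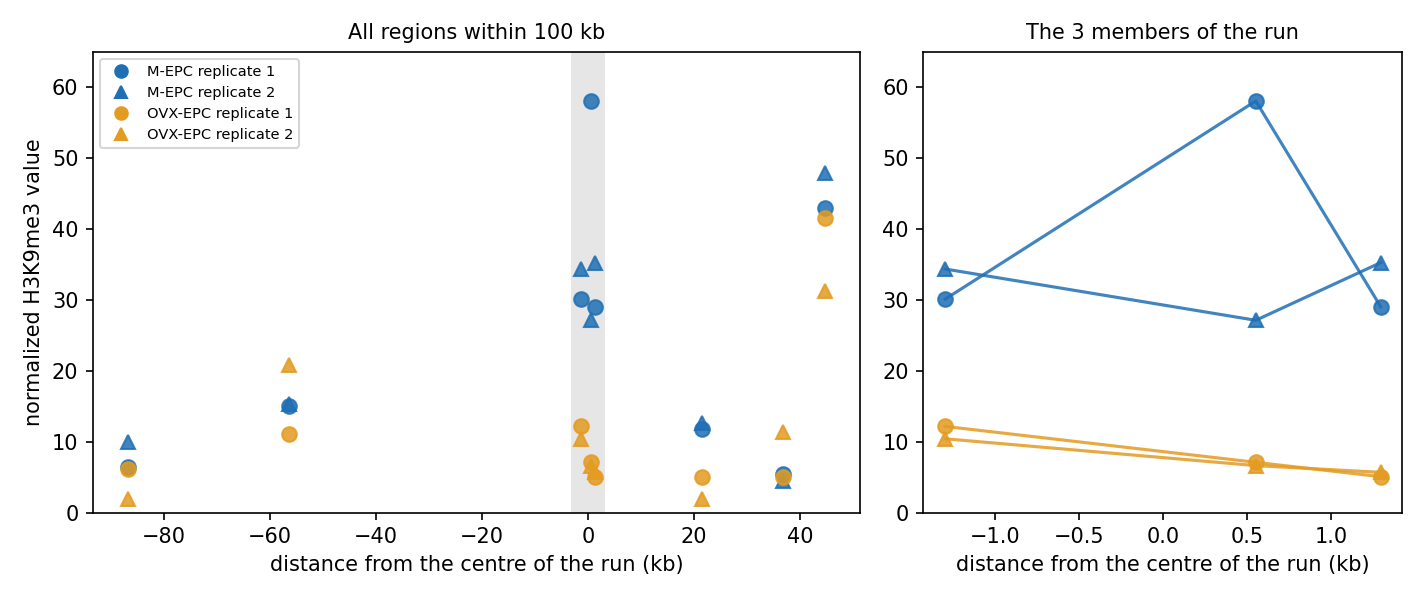
Normalized H3K9me3 values (y axis) of all regions within 100 kb (left; the shaded band marks the run) and of the 3 members of the Gm16237/Sipa1l2 run (right; lines join the members of 1 library), by distance in kb from the centre of the run. M-EPC values in the run are 27.1 to 58.0 and OVX-EPC values 5.06 to 12.1, while the region 44.7 kb away has 43.0 and 47.9 against 41.5 and 31.2.

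The other members among the 5 with the smallest p were the unnamed one at chr12:25413022-25413421, with 35.5 and 20.8 in M-EPC against 6.07 and 8.51 in OVX-EPC (log2 fold change -1.78 ± 0.38, limma adjusted p = 0.023), and one next to F630040K05Rik at chr17:45809326-45809725, with 33.3 and 20.8 against 10.1 and 5.67 (-1.67 ± 0.38, limma adjusted p = 0.040). Neither kept its call with TMM factors, where the adjusted p was 0.0505 and 0.085. The last 3 were next to the olfactory receptor gene Olfr212, the zinc finger gene Zfp709 and the kallikrein gene Klk1b24. The groups did not overlap in any of the 8, nor in 8115 of all 16931 regions fitted. Where both OVX-EPC values were under 10, the member passed the filter only through M-EPC, so its lack of overlap followed from the filter. Of the gene lists, zinc finger genes had 1 of 73 members called and olfactory receptors 1 of 31, and the other gene families had 0, beside 0.449% of all regions.

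Of runs with members, 2350 were fitted and 11 were called, all lower in OVX-EPC. Over all 16475 runs fitted 0.577% were called, 0.413% lower. The median log2 fold change was 0.053 in runs with members and -0.14 in all runs, although the called runs with members were lower. Here too the filter on the sum makes these medians unlike. TMM factors left 7, 4 higher and 3 lower, edgeR called 17, 8 higher and 9 lower, and DESeq2 called 1. Over all 16475 runs TMM factors gave 70, 34 higher and 36 lower. There edgeR gave 134, 68 higher and 66 lower, and DESeq2 gave 18, 8 higher and 10 lower. After the Gm16237/Sipa1l2 run came an unnamed pair at chr7:64027159-64028571, with 25.8 and 22.6 in M-EPC against 6.07 and 4.73 in OVX-EPC (log2 fold change -1.98 ± 0.40, limma adjusted p = 0.016, and 0.038 with TMM factors). This pair passed the filter only through M-EPC. The next run lay next to H2-Aa, the gene of a major histocompatibility complex class II chain, at chr17:34278578-34281049, with 64.5 and 54.2 against 24.3 and 25.5 (-1.21 ± 0.26, limma adjusted p = 0.025). The difference lay in its other region, downstream of the gene, at 47.3 and 33.4 against 10.1 and 7.57. The clustered distal intergenic member of the H2-Aa run gave 17.2 and 20.8 against 14.2 and 17.97 (limma adjusted p = 0.77).

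The comparisons of F-EPC and of OVX-EPC share the M-EPC libraries, so a run called lower in both was not called by independent data. The Gm11682 pair gave 21.5 and 21.7 in M-EPC against 5.06 and 4.73 in OVX-EPC (log2 fold change -1.94 ± 0.42, limma adjusted p = 0.029, and 0.064 with TMM factors), beside the -3.24 in F-EPC. The unnamed pair at chr12:25411752-25413421 gave log2 fold changes of -1.43 in F-EPC and -1.42 in OVX-EPC, mostly from its right member, with a limma adjusted p of 0.025 in each and 0.052 in each with TMM factors. A run next to Cand1, an exchange factor of cullin ubiquitin ligases, at chr10:119195116-119198617 gave -1.10 and -1.23 (limma adjusted p = 0.037 and 0.043, and 0.067 and 0.068 with TMM factors), and 2 of its 3 regions lie downstream of the gene and are not members. The remaining runs called in OVX-EPC lay next to Klk1b24, Zfp709 and Zfp882, Cand1 again, Lpl, the gene of lipoprotein lipase, and Zfp422-ps.

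The comparison of OVX-EPC with F-EPC asks about ovariectomy among female mice. Of 1313 members fitted, 0 were called by limma, edgeR or DESeq2, while over all 7897 regions fitted 0.0127% were called. At an unadjusted p under 0.05, limma gave 92 members, against 6.22% of all regions, edgeR gave 106 and DESeq2 gave 6. Over all 7897 regions edgeR gave 544 and DESeq2 gave 40 at that threshold. Of 1290 runs with members, 0 were called by any of the 3 tools. Over all 7750 runs the background was 0% in limma, while edgeR called 1 run. At an unadjusted p under 0.05 limma gave 104 of these runs, against 6.52% of all runs. The median log2 fold change of members was -0.0031, with quartiles at -0.31 and 0.27, against 0.03 in all regions.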

How the data were processed

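Per the labels and the study's methods, the authors trimmed paired reads to 25 bases, aligned them to mm10, removed duplicates with Picard, dropped reads of low mapping quality, called peaks with MACS and annotated them. The labels name BWA and MACS2, whereas the methods name Bowtie2. Dropping reads of low mapping quality may lower values in repeats, which was not tested. The deposited values are a normalized signal per region and library, 1 table per pair of groups, and 100% of them were whole reads times 1 factor per library, within a tolerance of 1e-06 reads. The authors' fold changes, mean levels and p-values for each region, also deposited, were not used.

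The members and gene lists were chosen with earlier results of these data known. Runs were maximal series of regions at most 2000 bp apart. Since the values were normalized, limma 3.58.1 in R 4.3.3 (lmFit, eBayes with trend) was fitted to log2(value + 1) of the 4 libraries of a table without covariates, over regions or runs with a value of at least 10 in at least 2 libraries, in place of edgeR, which the design named for raw counts. Fold changes of low regions are understated by the pseudocount of 1. edgeR 4.0.16 and DESeq2 1.42.0 were run on the recovered reads as alternatives, and all 3 were tested on simulated data. Named members and runs were, per comparison, the 5 with the smallest p in each direction among those called without overlap, plus the 5 strongest members, the 5 runs with the most members, the 5 longest runs and members at the study's genes. Sequences were read from RefSeq's GRCm38.p6, whose coordinates equal those of mm10, and starts from GENCODE M21. A further sequence is not reported here.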

Additional observations from a re-analysis of the deposited data

How the results depend on the processing

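The alternatives were run on the members and runs named for the smallest p, and none of these changed direction. Of the 17 members and runs named in F-EPC compared with M-EPC, 8 stayed called with TMM factors, 16 with edgeR and 0 with DESeq2, and of the 10 named in OVX-EPC compared with M-EPC, 5, 10 and 2 did. Leaving out each library in turn gave 10 to 96 called members and 7 to 154 called runs in the comparison of F-EPC to M-EPC. The highest counts came without M-EPC replicate 2 and the lowest without an F-EPC library. In OVX-EPC compared with M-EPC it gave 1 to 23 members and 1 to 29 runs, the highest without OVX-EPC replicate 2 and the lowest without either M-EPC library, and in OVX-EPC compared with F-EPC 0 to 1 members and 0 to 2 runs, the highest without OVX-EPC replicate 2. The lone library of a group is assumed there to vary like the other group, and the cause of these swings was not tested. No count over all regions or runs stands beside these swings, so they are not read as particular to members.

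For F-EPC against M-EPC, called members numbered 36 with no filter on low values, 27 with a value of at least 30 in at least 2 libraries and 56 with a mean value of at least 10, and called runs numbered 63, 73 and 111. TMM factors gave 1 member and 11 runs, and DESeq2 0 and 0. A linking distance of 1000 bp gave 11 members and 14 runs, and 5000 bp gave 26 and 46, since the distance sets how many regions are members. For OVX-EPC against M-EPC, the minimum of 30 gave 20 members and 44 runs, the mean of 10 gave 25 and 48, no filter gave 32 runs, a pseudocount of 0.1 gave 3 and 6, TMM factors gave 4 and 7, DESeq2 gave 1 and 1, edgeR gave 15 and 17, and linking at 1000 bp gave 5 members. For OVX-EPC against F-EPC the minimum of 30 gave 1 run. The cause of the other moves was not tested. For the filter, pseudocount and linking settings, no count over all regions or runs stands beside these numbers. Their moves are therefore not read as particular to members.

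Whether replicate numbers pair the libraries was not settled. Over 7970 regions, the difference between replicates in M-EPC correlated at -0.046 with that in F-EPC and at 0.0052 with that in OVX-EPC. The last pair of groups gave -0.023. Counting error at few reads per region can hide a shared difference, so these values cannot exclude pairing. With a replicate block there were 27 called members and 41 called runs in F-EPC compared with M-EPC, 8 and 21 in OVX-EPC compared with M-EPC, and 0 and 0 when OVX-EPC was set beside F-EPC. Over all regions and all runs, the block gave 166 and 197, 103 and 143, and 0 and 0 in the same order.

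The median log2 fold change of members less that of all regions was 0.15 for F-EPC against M-EPC. It was 0.082 with no filter and 0.065 with the minimum of 30, and 0.11 to 0.20 when leaving out each library. For OVX-EPC against M-EPC it was 0.076, with 0.023 at the minimum of 30 and 0.023 to 0.11 when leaving out each library. For OVX-EPC against F-EPC it was -0.033, with -0.089 to 0.0082 when leaving out each library. The difference in the share of reads between F-EPC and M-EPC, 0.714 points over all regions, was 1.23 points over regions with a value of at least 10 in at least 2 libraries, 0.018 with the minimum of 30, 1.12 with a mean value of at least 10, 0.18 with linking at 1000 bp and 1.42 at 5000 bp. It was 0.593 to 0.834 when leaving out each library. With a median of 7 to 11 reads per member and library, counting error was large beside the level of most members, and how far depth limited the calls was not tested.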
